A study of Homo sapiens with 30 samples.

Results

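The regions described here are short stretches of the genome that stayed assigned to the nuclear lamina in G1, S and G2 of HCT116, a human colorectal carcinoma cell line. Chromosomes 1 to 22 (hg19) were divided into 100 kb bins, and a bin was kept if at least 0.5 of it lay inside the consensus domain list of each of the 3 stages. Kept bins in an unbroken run of fewer than 20 bins, that is under 2 Mb, were the members. They numbered 1768 of 4487 kept bins (39.4%), of 6143 bins covered in at least 1 stage (28.8%) and of 28803 bins in all (6.14%). They formed 191 stretches with a total of 176.8 Mb, and the other 2719 kept bins formed 77 long stretches with a total of 271.9 Mb. Members were thus selected on measured coverage in the 3 lists and on run length, so the lengths and stage coverage below are a description and carry no test.

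The series holds 30 samples. The domains came from 12 DNA samples of HCT116, a streptavidin pulldown and an input in each of 2 replicates for G1, S and G2, reduced by the authors to 1 consensus list per stage. RNA came from 8 libraries of asynchronous HEK293FT cells, a human embryonic kidney line, in 4 groups of 2 libraries: a nuclear fraction, a cytosolic fraction, a native lamina preparation and a lamina preparation fixed with paraformaldehyde (PFA). All 8 RNA libraries, fractions included, carry the same treatment label, transfection of a construct joining APEX2, a peroxidase that tags nearby molecules with biotin, to lamin B1; their RNA was ribosome-depleted. Domains and RNA were therefore measured in different cell lines, and nothing here shows where these genes lie in HEK293FT nuclei. K562 and histone-mark samples of the series were not used here.

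Lamina-associated domains are large regions of chromatin in contact with the protein meshwork under the inner nuclear membrane. They are known for few genes, low transcription and repressive histone marks, and for clusters of tissue-restricted gene families such as olfactory receptors. Genes of the KRAB zinc finger family, which encode DNA-binding repressors, lie in clusters, many of them on chromosome 19, and many are transcribed in most cell types.

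Promoter sequences are shown for genes with and without detected RNA in these stretches. Of the 275 protein-coding genes wholly inside, 220 matched a RefSeq promoter entry (80.0%; build GRCh38.p14, a different build from the hg19 domain lists). Within the 250 bases before the annotated start, these 220 had a median of 3.5 CG pairs and a median GC content of 47.2%, against 17 CG pairs and 62.4% over all 15100 protein-coding promoters of the table. At least 10 CG pairs were present in 35.0% of the stretch promoters and in 69.0% of all. The letters TATAAA, read on either strand, were in 55 of the 220 stretch promoters and in 9.3% of all. The 184 matched protein-coding genes of long stretches (78.0%) had a median of 7.5 CG pairs. At least 10 were present in 45.1% of these, and 13.6% held TATAAA. Among the 207 stretch genes whose RNA was not detected, 170 matched (82.1%), with a median of 2 CG pairs, and 31.2% held TATAAA. Of the 68 detected genes only 50 matched (73.5%), with a median of 19 CG pairs, and 4.0% held TATAAA. Undetected genes of long stretches (79.6% matched) had a median of 4 CG pairs, and 14.7% held TATAAA. Undetected genes elsewhere (2571 of 3430 matched) had a median of 4 CG pairs, and 21.2% held TATAAA. Genes without a match may differ from those matched. Whether the detected and undetected genes of the stretches differ in these features, or whether the values are particular to the stretches, was not tested. Neighbouring members of a gene family have related promoters and are not independent of each other. The 7 sequences below, RefSeq bases read 5′ to 3′ along the gene with each CG in capitals, are from SFMBT2, a Polycomb-family gene and the stretch gene with the most RNA, from SPG20 and LYPD1, also among the most abundant, from the zinc finger genes ZNF529 and ZNF140, and from undetected members of the olfactory receptor and hair keratin-associated families.
SFMBT2 promoter, chr10:7411491-7411740, minus strand: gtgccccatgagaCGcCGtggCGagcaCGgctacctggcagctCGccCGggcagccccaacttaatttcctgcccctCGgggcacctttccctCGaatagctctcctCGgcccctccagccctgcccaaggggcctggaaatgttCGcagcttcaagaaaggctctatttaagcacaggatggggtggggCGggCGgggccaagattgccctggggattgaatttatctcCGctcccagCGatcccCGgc
SPG20 promoter, chr13:36370181-36370430, minus strand: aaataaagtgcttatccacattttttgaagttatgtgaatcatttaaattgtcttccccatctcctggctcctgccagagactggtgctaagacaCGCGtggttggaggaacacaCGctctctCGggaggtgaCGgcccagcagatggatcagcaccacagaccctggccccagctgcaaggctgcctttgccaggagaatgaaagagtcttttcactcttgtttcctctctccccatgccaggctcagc
LYPD1 promoter, chr2:132671527-132671776, minus strand: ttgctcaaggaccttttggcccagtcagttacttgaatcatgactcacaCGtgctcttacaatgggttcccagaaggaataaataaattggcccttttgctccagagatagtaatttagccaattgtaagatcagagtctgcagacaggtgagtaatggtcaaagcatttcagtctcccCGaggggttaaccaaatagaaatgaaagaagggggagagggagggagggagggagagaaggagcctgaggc
ZNF529 promoter, chr19:36605258-36605507, minus strand: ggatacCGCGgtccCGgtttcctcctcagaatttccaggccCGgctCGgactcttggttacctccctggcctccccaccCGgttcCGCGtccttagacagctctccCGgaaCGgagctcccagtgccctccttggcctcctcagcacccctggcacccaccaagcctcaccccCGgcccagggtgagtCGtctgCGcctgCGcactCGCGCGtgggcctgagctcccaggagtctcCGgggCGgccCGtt
ZNF140 promoter, chr12:133080673-133080922, plus strand: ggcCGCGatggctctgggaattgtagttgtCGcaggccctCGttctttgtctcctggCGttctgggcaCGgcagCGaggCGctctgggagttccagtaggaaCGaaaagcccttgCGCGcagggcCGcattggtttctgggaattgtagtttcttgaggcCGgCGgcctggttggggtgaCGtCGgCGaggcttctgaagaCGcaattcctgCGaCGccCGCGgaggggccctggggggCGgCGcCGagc
OR6Y1 promoter, chr1:158554406-158554655, minus strand: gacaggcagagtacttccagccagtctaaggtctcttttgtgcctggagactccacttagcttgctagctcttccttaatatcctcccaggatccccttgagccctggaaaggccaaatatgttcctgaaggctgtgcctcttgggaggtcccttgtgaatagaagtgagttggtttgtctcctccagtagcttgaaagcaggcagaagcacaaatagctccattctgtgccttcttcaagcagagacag
KRTAP19-1 promoter, chr21:30480368-30480617, minus strand: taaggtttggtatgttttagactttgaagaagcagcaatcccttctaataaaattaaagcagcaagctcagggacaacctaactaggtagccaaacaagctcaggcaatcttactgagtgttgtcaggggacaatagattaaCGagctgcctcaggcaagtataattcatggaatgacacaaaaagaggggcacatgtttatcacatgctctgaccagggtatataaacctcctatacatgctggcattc
These stretches of 250 bases hold 15 CG pairs for SFMBT2, 5 for SPG20, 2 for LYPD1, 20 for ZNF529, 25 for ZNF140, 0 for OR6Y1 and 1 for KRTAP19-1. Among these 7, the detected genes thus have from 2 to 25 CG pairs, and only KRTAP19-1 has TATAAA. The sequences shown do not stand for the 50 matched detected genes, of which 86.0% had at least 10 CG pairs. A match describes letters and is not evidence of a working site.

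The stretches had a median length of 0.9 Mb (quartiles 0.5 and 1.3, range 0.1 to 1.9 Mb), while long stretches had a median of 3.1 Mb and reached 8.0 Mb. Single bins made up 7 of the 191 stretches, 52 had 5 bins or fewer and 87 had 10 or more. At the limit, 13 runs of 18 or 19 bins fell inside the definition and 13 runs of 20 or 21 bins fell outside it. Those just inside held 61 whole genes, 9 of them detected (14.8%), and those just outside held 99 with 16 detected (16.2%). Chromosome 20 held 12 short stretches over 18.1% of its bins and no long one. Chromosomes 16, 18, 21 and 19 followed with 12.18%, 11.78%, 11.43% and 10.15% of their bins in short stretches, and chromosome 22, also without a long stretch, had 1 short stretch. The median distance to the nearest long stretch was 6.55 Mb; 28 stretches lay within 1 Mb of one and 102 lay over 5 Mb away.

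**Figure D1:**
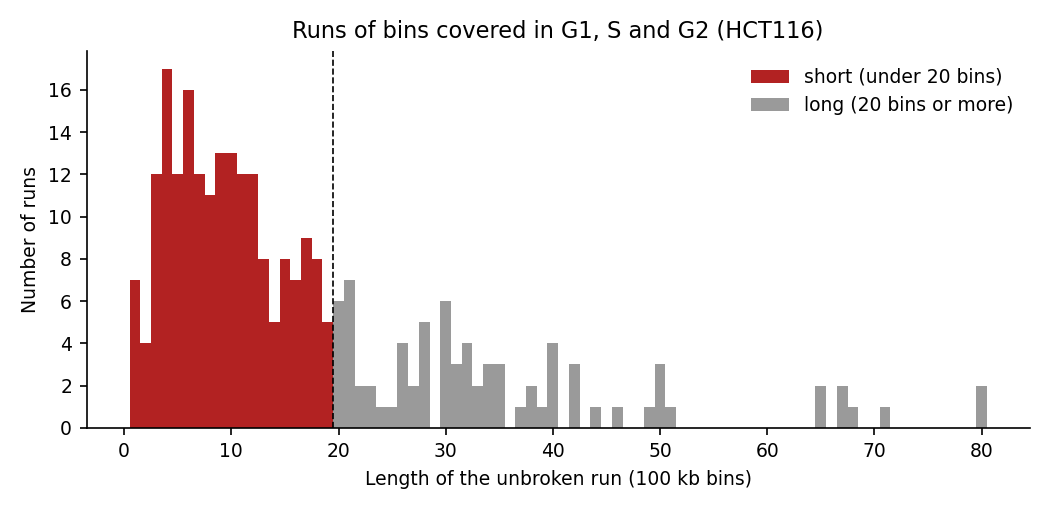
Number of unbroken runs of kept 100 kb bins (y axis) by their length in bins (x axis) in HCT116, short runs in red and long runs in grey; the dashed line marks the limit of 20 bins. There are 8 and 5 runs of 18 and 19 bins and 6 and 7 runs of 20 and 21 bins, with 13 on each side of the limit.

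Most stretches were the shared core of intervals that reached further in some stages. In all 3 stages together, 146 of 191 stretches lay in intervals under 2 Mb, and the other 45 lay in an interval of 2 Mb or more in at least 1 stage. The stretch equalled the whole interval in S for 86 stretches, in G1 for 53 and in G2 for 49, and in all 3 stages for 10. Of the 382 stretch edges, 104 (27.2%) were followed by a bin covered in G1 and G2 but not S, against 14.3% of long-stretch edges, and 74 (19.4%) by a bin covered in no stage, against 28.6%. The next bin was covered in G1 at 49.7% of edges, in G2 at 53.9% and in S at 37.4%. The S list also had the fewest covered bins of the 3, 4954 against 5330 in G1 and 5642 in G2. Each list is a consensus without replicates, so no spread can be given for these shares.

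The stretches were poor in genes. Wholly inside them lay 668 genes, or 3.78 per Mb, compared with 2.18 per Mb in long stretches and 10.1 per Mb elsewhere on chromosomes 1 to 22. They were 275 protein-coding genes, 206 long non-coding RNA genes, 81 small nucleolar RNA genes, 39 microRNA genes, 39 transcribed pseudogenes, 1 antisense RNA gene and 27 symbols without a match in the RefSeq names. No whole gene lay in 49 stretches. Another 139 genes touched a stretch without lying wholly inside; their median span of 403 kb compares with 8.0 kb for the genes inside, and 59 of them (42.4%) were detected.

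RNA of most of these genes was absent or at the floor in HEK293FT. No library had a count for 410 of the 668 (61.4%), a share of 56.8% in long stretches and 10.9% elsewhere. More than 3 counts in both libraries of at least 1 group, the definition of detected used here, were found for 104 (15.6%), against 17.2% in long stretches and 69.2% elsewhere. Among protein-coding genes 68 of 275 (24.7%) were detected, against 31.4% in long stretches and 80.3% elsewhere. For long non-coding RNA genes the share was 10.2% against 44.3% elsewhere, and for microRNA genes 0 of 39 against 18.6%. For small nucleolar RNA genes it was 2.47% against 67.0%, but 77 of these 81 genes lay in 1 stretch on chromosome 15. Genes elsewhere also had longer exons, with a median exonic length of 2406 bases against 1114, and longer genes collect more counts. The floor of 3 counts equals 0.312 to 1.10 CPM (read counts scaled to library size with TMM factors) in these libraries, so RNA below that level was not detectable at this depth. Detected protein-coding genes had a median level of 1.4 CPM per kb of exon, against 2.22 in long stretches and 6.71 elsewhere. No gene inside averaged over 100 CPM; the highest, SFMBT2 at 81.1 CPM, ranked 2121 among all 27630 genes. In bulk RNA, fewer cells expressing a gene and less RNA per cell cannot be told apart.

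**Figure D2:**
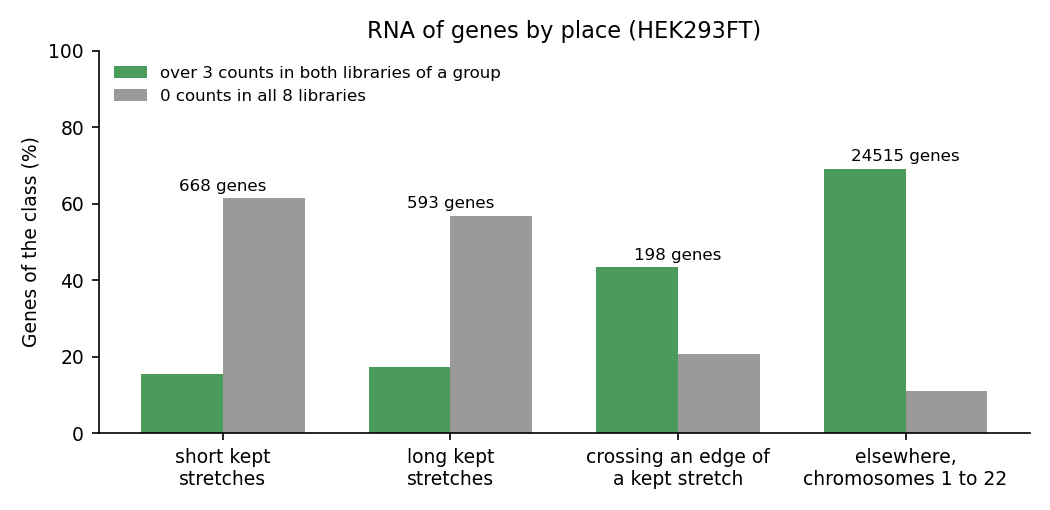
Share of genes (y axis, %) with over 3 counts in both libraries of a group (green) or with 0 counts in all 8 libraries (grey), for genes by place on chromosomes 1 to 22 (x axis). Short kept stretches had 15.6% detected and 61.4% at 0, and genes elsewhere had 69.2% and 10.9%.

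Detection varied with stretch size without a steady trend. Stretches of 1 to 4 bins had 9 of 42 genes detected (21.4%), those of 5 to 9 bins 47 of 164 (28.7%), those of 10 to 14 bins 18 of 269 (6.69%) and those of 15 to 19 bins 30 of 193 (15.5%). The low share at 10 to 14 bins includes the undetected clusters of 90 and 35 genes described next. On chromosome 19, 28 of 53 genes were detected (52.8%), and on the other chromosomes 76 of 615 (12.4%).

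The most gene-rich stretches were clusters with almost no counts. The 3 richest held 172 of the 668 genes (25.7%). A stretch of 1.3 Mb on chromosome 15 (chr15:24200001-25500000) held 90 genes, 77 of them small nucleolar RNA genes, in the region of imprinted genes around SNRPN, which encodes a splicing protein and is known to be expressed from the paternal copy. Of these genes 85 had no count, none was detected, and the 8 libraries together had 5 counts from all 90; SNRPN itself had 1 count in nuclear replicate 1 and 0 in the other 7 libraries. At the end of the long arm of chromosome 1 (chr1:247600001-249100000), 47 genes, many of them olfactory receptors, gave 59 counts in all; 41 had none, and only TRIM58 was detected. On chromosome 21 (chr21:31100001-32200000), 35 genes, including the hair keratin-associated family, gave 45 counts, and 30 had none. KRTAP19-1 accounted for most of these, with 5 and 2 counts in the nuclear, 9 and 2 in the cytosolic, 4 and 2 in the native and 9 and 3 in the PFA libraries, and no group had over 3 counts in both libraries. Another cluster on chromosome 1 (chr1:13000001-13700000), 14 genes including members of the PRAME family, had 0 counts for every gene in every library.

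Olfactory receptor and keratin genes were undetected inside the stretches and mostly undetected outside them. The stretches held 69 of the 414 olfactory receptor symbols in the table, odorant sensors of the nasal epithelium; 63 had no count and none was detected, and the highest, OR6Y1, had 3 counts in PFA replicate 2 and 0 in the other 7 libraries. Of the 345 outside, 232 had no count and 13 were detected. The stretches held 30 of 150 keratin and keratin-associated symbols, of which 25 had no count and none was detected, while 8 of the 120 outside were detected. Of 6 interferon, interleukin and chemokine genes, among them CCL2, CCL7 and CCL13, none was detected, against 18 of 103 outside. Ion channel and neurotransmitter receptor genes had 1 of 8 detected, the potassium channel gene KCNJ2, against 159 of 249 outside. Axon guidance and adhesion genes had 1 of 3, the ephrin receptor gene EPHA3, against 76 of 101 outside. Developmental transcription factor genes had 4 of 6 detected, led by SALL1, TSHZ3 and MEIS1, against 207 of 251 outside. No cytosolic ribosomal protein, core histone, mitotic or lamina tether gene of the lists lay inside a stretch. The same held for the cadherin and protocadherin, serpin, and taste and vomeronasal receptor lists. These lists have 27 to 92 symbols in the table. Of all 27630 genes 668 lay inside, and lists of that size hold few members at such a share.

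A few stretches held most of the RNA. Only 51 of the 191 contained a detected gene, and 10 stretches gave 64.9% of all counts from stretch genes. The leading one, 0.6 Mb of chromosome 19 (chr19:37000001-37600000), held 14 genes, mostly zinc finger genes such as ZNF260, ZNF529 and ZNF850, all 14 of them detected, and gave 15.4% of the counts. Its summed level was 262.2 and 238.6 CPM in the nuclear, 122.6 and 123.5 in the cytosolic, 134.3 and 164.0 in the native and 142.7 and 154.1 in the PFA libraries. Both nuclear libraries lay above the other 6, and both cytosolic libraries lay below. A zinc finger stretch of 0.3 Mb near the end of chromosome 12 (chr12:133500001-133800000), with ZNF140, ZNF891, ZNF10 and ZNF268, had the same order of fractions, 103.2 and 102.9 CPM nuclear against 40.38 and 26.43 cytosolic, with the 4 lamina libraries between at 48.33 to 64.38. A further zinc finger stretch of 0.8 Mb on chromosome 19 (chr19:56900001-57700000) was mixed: 7 of its 18 genes were detected, led by ZNF71, while the imprinted gene PEG3 had 1 count in 1 library and 0 in the others. Other leading stretches had 1 prominent gene each, SFMBT2 on chromosome 10, GLI3 on chromosome 7, CADM1 on chromosome 11, SPG20 on chromosome 13 and SALL1 on chromosome 16.

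The genes with the highest level per kb of exon included adhesion, signalling and developmental genes. UBE2MP1, a transcribed pseudogene of the ubiquitin-conjugating enzyme gene UBE2M, led with a mean of 35.0 CPM per kb over the 8 libraries; its reads may come in part from the parent gene. CADM1, which encodes a cell adhesion protein, followed at 15.77 CPM per kb. Its CPM was 112 and 86.4 in the nuclear, 64.8 and 41.7 in the cytosolic, 68.1 and 76.6 in the native and 64.3 and 39.7 in the PFA libraries, so both nuclear libraries were above the other 6. SPG20 (10.93 CPM per kb) encodes spartin, SFMBT2 (10.05) a Polycomb protein, SALL1 (9.983) a zinc finger factor of kidney development and GLI3 (9.478) a transcription factor of Hedgehog signalling. LYPD1, ZNF521, BMP2, a secreted growth factor gene, ZNF71 and ZNF140 followed, at 7.249 to 4.671 CPM per kb. Across their neighbours in this order, levels overlapped between libraries. The exons of LYPD1 and GPR39 overlap, as do those of SPG20 and its antisense gene. Since the counting ignored strand and gave a read to each gene it touched, such pairs cannot be separated.

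**Figure D3:**
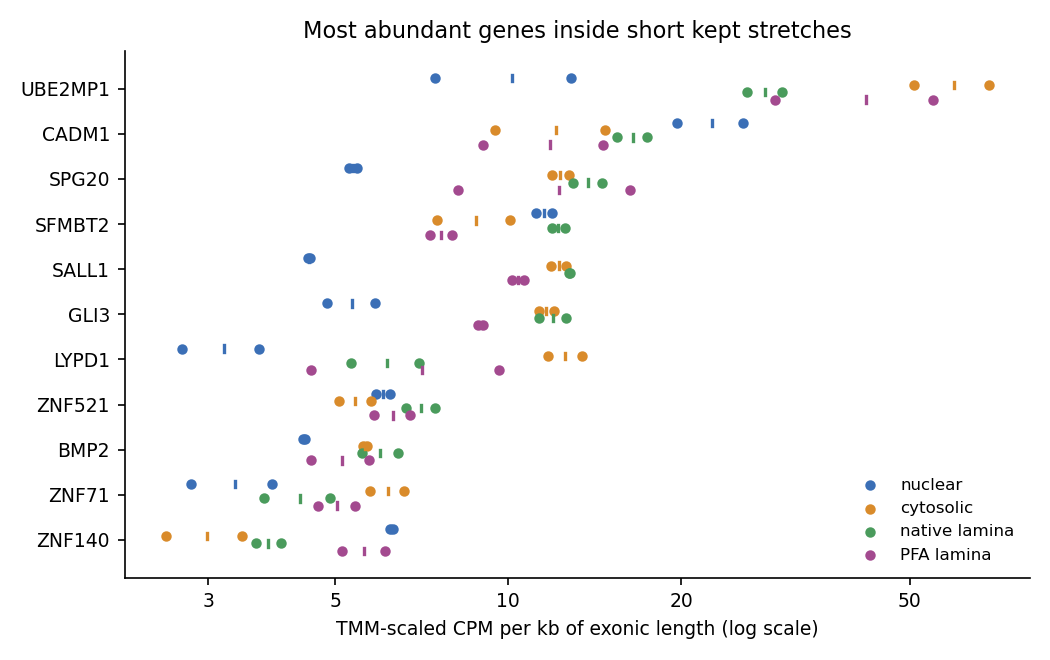
Level of stretch genes with the most RNA per length (y axis) as TMM-scaled CPM per kb of exonic length on a log scale (x axis); each point is 1 library, 2 per group, and the short vertical bar is their mean. For UBE2MP1, SALL1, GLI3, SPG20 and LYPD1 both nuclear libraries lie below all 6 others.

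The nuclear and cytosolic fractions were compared to ask on which side RNA from these stretches was found. Of the 668 genes, 92 passed the filter on low counts, which favours genes high in some group, so what follows describes those 92 and not the 576 others. With edgeR's quasi-likelihood test and Benjamini-Hochberg adjustment over 16504 genes, 30 of the 92 were higher in the nuclear fraction (background 26.1% of all genes tested) and 8 were lower (background 21.2%). As shares of the 92 these are 32.6% and 8.7%. The median log2 fold change was 0.82, against 0.13 over all genes tested and 0.82 for the 85 tested genes of long stretches, so short and long stretches had the same median. The 4 pairings of a nuclear with a cytosolic library gave medians from 0.56 to 1.07. Without nuclear replicate 1 the count of higher genes was 17, and without cytosolic replicate 2 it was 19; it ranged from 17 to 41 over the 8 choices of a library to leave out. The labels do not say whether the 2 libraries of a group came from separate cultures, so p-values measure the spread between these samples, which may be technical.

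Counts of calls differed between kinds of gene, here as over the whole table. Of 25 tested zinc finger symbols, 13 were higher in the nuclear fraction and 1 was lower, with a median log2 fold change of 1.26; zinc finger genes outside short stretches had a median of 0.68 over 460 genes, with 171 higher and 35 lower. Of 38 other protein-coding genes, 3 were higher and 6 lower, with a median of 0.09; among all genes tested 2990 of 13593 such genes were higher and 3331 lower, with a median of -0.05. Of 29 non-coding, pseudogene and unmatched symbols, 14 were higher and 1 lower, with a median of 2.37; among all genes tested 1140 of 2426 were higher and 130 lower, a share of higher genes near that in the stretches, with a median of 1.56. In long stretches, 8 of 12 tested zinc finger symbols were higher and 0 lower, with a median of 1.43. For other protein-coding genes there, 14 of 55 were higher and 9 lower, with a median of 0.18. Of 18 non-coding, pseudogene and unmatched symbols there, 11 were higher and 1 lower, with a median of 2.05. Without zinc finger symbols, 17 genes of the short stretches were higher and 7 lower.

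**Figure D4:**
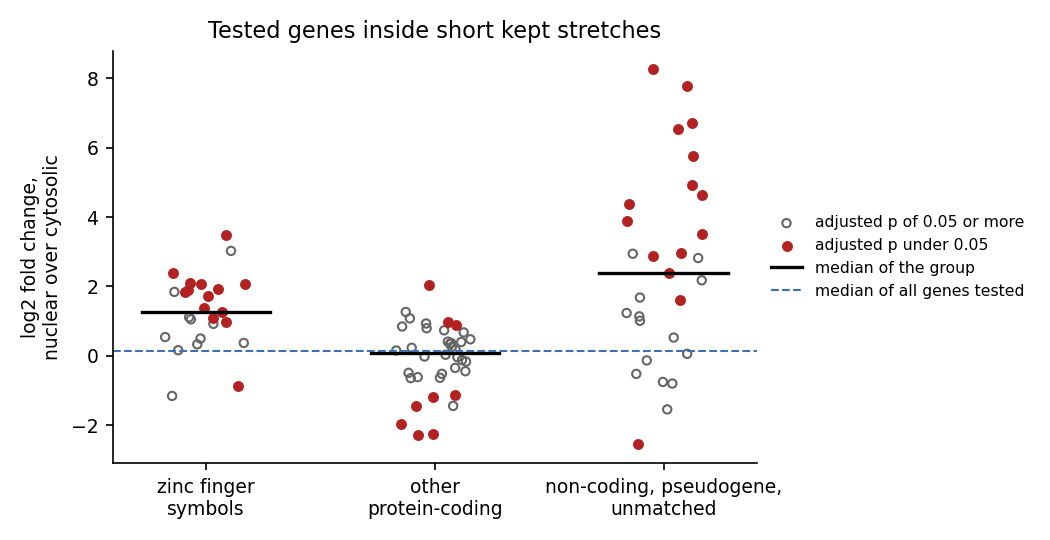
log2 fold change of nuclear over cytosolic RNA (y axis) for the 92 tested genes inside short kept stretches, by kind of gene (x axis); filled red points have an adjusted p under 0.05 in edgeR's test, black bars are group medians (1.26, 0.09 and 2.37), and the dashed line is the median of all genes tested (0.13). Non-coding genes and zinc finger genes lie mostly above the line, and other protein-coding genes lie on both sides of it.

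Non-coding RNAs were among the genes with the largest nuclear excess. LOC105369509, a non-coding gene within the span of CADM1, had 32 and 23 counts in the nuclear libraries and 0 in both cytosolic libraries. Against a floor of 3 counts per library it was at least 8.63-fold higher in the nuclear fraction (edgeR adjusted p = 0.00235). As the counting ignored strand, reads from unspliced CADM1 RNA at this place would be counted for it too. Their part was not tested. LINC01415 had 75 and 46 nuclear counts against 2 and 0, a ratio of 60.3 with a 95% counting interval of 16.3 to 504 (edgeR adjusted p = 0.000801). The pseudogene LOC100420587 had 42 and 27 against 1 and 1, a ratio of 34.4 with an interval of 9.17 to 290 (edgeR adjusted p = 0.00128). In all 3, nuclear and cytosolic libraries did not overlap, which follows from naming called genes with the largest fold changes. Reads carried no molecular identifiers, so these intervals cover counting error only.

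Several of the most abundant genes went the other way. UBE2MP1 had 7.16 and 12.4 CPM in the nuclear and 48.9 and 66 in the cytosolic fraction, which is -2.56 ± 0.38 (SE) on the log2 scale, nuclear over cytosolic (edgeR adjusted p = 0.000732). LYPD1 had 14.9 and 11 CPM against 47.6 and 54.5, or -1.97 ± 0.37 on the log2 scale (edgeR adjusted p = 0.00153). SALL1 had 24 and 24.2 CPM against 67.7 and 63.6, or -1.45 ± 0.26 on the log2 scale (edgeR adjusted p = 0.00138). SPG20 had 29.4 and 28.5 CPM against 64.3 and 68.7, or -1.2 ± 0.32 on the log2 scale (edgeR adjusted p = 0.00915); without either nuclear library its adjusted p no longer passed, the largest over all alternatives being 0.0611. GLI3 had 48.1 and 39.7 CPM against 98.5 and 92.8, or -1.12 on the log2 scale (edgeR adjusted p = 0.00441). SFMBT2, with 90.3 and 96.2 CPM against 60.6 and 81.2, did not pass (log2 fold change 0.40, edgeR adjusted p = 0.231).

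The lamina preparations were compared with the nuclear fraction to ask whether RNA near APEX2-lamin B1 held more from these stretches. In the native preparation 5 of the 92 were higher (background 3.87%) and 6 lower (background 3.44%), and in the PFA preparation 4 were higher (background 9.63%) and 10 lower (background 7.81%), by the same edgeR test. Median log2 fold changes were -0.35 and -0.39, against -0.07 and -0.04 over all genes tested. The 85 tested genes of long stretches had medians of -0.12 and -0.38, so the PFA median was nearly the same there. Of those 85, 5 were higher and 7 lower in the native preparation, and 7 higher and 14 lower in the PFA preparation. Both comparisons share the nuclear libraries with each other and with the comparison of fractions. Without either nuclear library none of the native calls remained: 0 higher and 0 lower. For the PFA preparation 0 higher and 0 lower were left without nuclear replicate 1, and 1 higher and 0 lower without nuclear replicate 2.

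SALL1, SPG20 and UBE2MP1, low in the nuclear fraction, were higher in both preparations. SALL1 had 68.5 and 68.5 CPM in the native and 57.1 and 54.4 in the PFA libraries, log2 fold changes over nuclear of 1.51 ± 0.26 (edgeR adjusted p = 0.0115) and 1.21 ± 0.26 (edgeR adjusted p = 0.0124). These levels are near the cytosolic ones given above, and against the cytosolic fraction SALL1 had log2 fold changes of 0.06 and -0.23, neither past the test. SPG20 rose over nuclear by 1.36 ± 0.32 and 1.2 ± 0.32 on the log2 scale (edgeR adjusted p = 0.0301 and 0.0264), with 70 and 78.7 CPM native and 88 and 44.1 PFA. GLI3 was the other native call (log2 fold change 1.16, edgeR adjusted p = 0.026). UBE2MP1 rose by 1.47 ± 0.37 and 2.07 ± 0.38 (edgeR adjusted p = 0.037 and 0.00784). PPP1R2P3, a gene of the protein phosphatase inhibitor family with near-identical copies, was higher in the native preparation (2.59 ± 0.71, edgeR adjusted p = 0.0453), with 2 and 8 counts in the nuclear libraries, and LYPD1 in the PFA preparation (1.17 ± 0.37, edgeR adjusted p = 0.0439). The calls of SALL1, SPG20, UBE2MP1, PPP1R2P3 and LYPD1 were lost without nuclear replicate 1, and all but that of UBE2MP1 in the PFA preparation were lost without nuclear replicate 2.

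Some nuclear non-coding and zinc finger RNAs were lower in the preparations: 3 of 25 zinc finger symbols and 3 of 29 non-coding, pseudogene and unmatched symbols in the native preparation, and 6 of 25 and 3 of 29 in the PFA preparation. The pseudogene UBE2MP1 described above, was higher in each. LOC105369509, whose counts may include reads of CADM1, was lower in the native preparation (log2 fold change -3.82 ± 0.96, edgeR adjusted p = 0.0378). It was also lower in the PFA preparation, with 0 and 1 counts, a ratio of 36.5 with an interval of 6.28 to 1470 (edgeR adjusted p = 0.0238). ZNF506 had 61 and 47 nuclear counts against 8 and 4 native and 0 and 6 PFA counts, log2 fold changes of -3.57 ± 0.95 and -3.32 ± 1.03 (edgeR adjusted p = 0.0411 and 0.0429). LINC01296, a pseudogene transcript whose exons overlap DUXAP10, fell by 1.97 and 2.39 on the log2 scale (edgeR adjusted p = 0.0467 and 0.0217). ZNF529-AS1, whose exons overlap ZNF529, was lower in the PFA preparation by edgeR's test (-2.46 ± 0.58, adjusted p = 0.0169). None of the 25 zinc finger symbols was higher in either preparation. Over all 485 tested zinc finger symbols, 15 were higher and 43 lower in the native and 35 higher and 73 lower in the PFA preparation. Of all 2426 tested non-coding, pseudogene and unmatched symbols, 26 were higher and 159 lower in the native preparation. In the PFA preparation 61 of these were higher and 409 lower, a larger share of lower ones than in the stretches. Each of these named calls was lost without either nuclear library.

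Against the cytosolic fraction, 6 of the 92 were higher in the native preparation (background 6.99%) and 0 lower (background 6.77%), with 3 lower at an unadjusted p under 0.05 in edgeR's test and 2 by DESeq2. Among the 6 were PLXDC2, a membrane protein gene, with 17.1 and 11.8 CPM native against 6.28 and 5.29 cytosolic (log2 fold change 1.31 ± 0.39, edgeR adjusted p = 0.0399), ASXL3 (1.1 ± 0.29, edgeR adjusted p = 0.0279) and EPHA3 (1.07 ± 0.33, edgeR adjusted p = 0.0482). These 3 calls were lost without either cytosolic or either native library. In the nuclear fraction PLXDC2 had 28.8 and 19.1 CPM and EPHA3 28.9 and 20.1; the former are above both native libraries, and the latter overlap them. The PFA preparation had 0 higher (background 0.527%) and 0 lower (background 0.145%), with 16 and 1 at an unadjusted p under 0.05 in edgeR's test and 2 and 0 by DESeq2; without PFA replicate 1, 5 were higher and 1 lower. Between the 2 preparations no gene was called in either direction (background 0.0% each), with 0 higher and 3 lower at an unadjusted p under 0.05 in edgeR's test and 0 by DESeq2. The smallest adjusted p of a stretch gene was 0.378.

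As a share of all counts, stretch genes were a small part of every library. They gave 0.1251% and 0.0949% of the nuclear counts, 0.0992% and 0.0777% of the cytosolic, 0.1259% and 0.1255% of the native and 0.0982% and 0.1191% of the PFA counts. The widest 95% Wilson interval, for the shallowest library, PFA replicate 2, ran from 0.1148% to 0.1236%. Lamina libraries averaged 0.117% ± 0.013 (SD, n = 4) and fraction libraries 0.0992% ± 0.0196 (SD, n = 4), a difference that did not pass a 2-sided exact permutation test (p = 0.229, where 0.0286 is the smallest possible). With the counts of LMNB1, the lamin B1 gene carried by the transfected construct, left out of the totals, the difference was 0.027 percentage points (exact permutation p = 0.0571). Genes of long stretches gave more counts in every library, with a ratio of short to long from 0.459 to 0.592. The log2 ratio of short to long was -0.953 ± 0.179 (SD, n = 4) in lamina and -0.931 ± 0.106 (SD, n = 4) in fraction libraries (exact permutation p = 0.886).

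**Figure D5:**
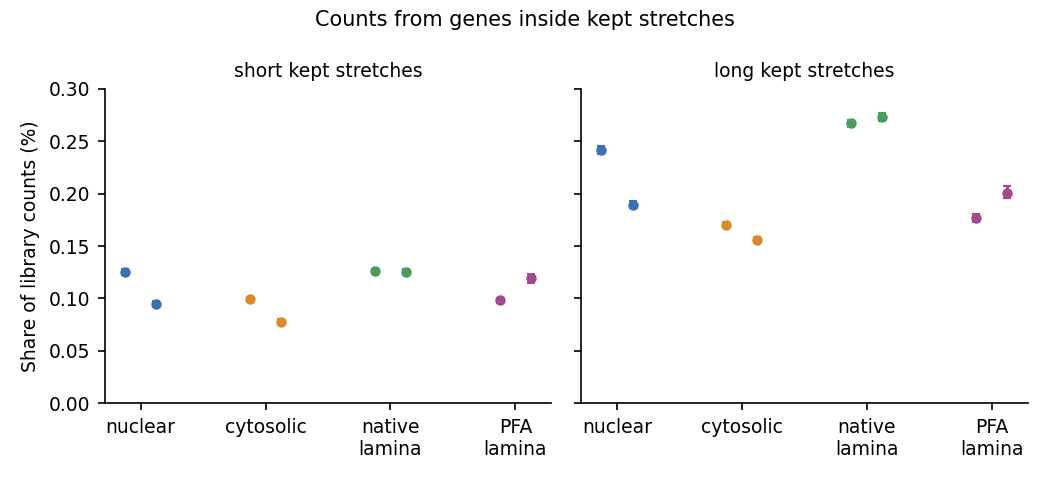
Share of each library's counts (y axis, %) from genes inside short (left) and long (right) kept stretches, 2 libraries per group (x axis); error bars are 95% Wilson intervals, mostly smaller than the points. For short stretches both native libraries are highest, at 0.1259% and 0.1255%, with intervals that overlap that of nuclear replicate 1 at 0.1251%. Nuclear and PFA libraries overlap, and cytosolic replicate 2 is lowest at 0.0777%.

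Total counts ran from 2321291 to 8557777 per library. Markers of the HEK293 line were detected for 7 of 8 genes, with a summed level of 516.6 to 1811 CPM. Markers of colon carcinoma cells summed to 24.28 to 51.81 CPM, those of K562 cells to 10.72 to 28.52 CPM with HBG1, HBG2 and HBE1 at 0, those of fibroblasts to 16.63 to 40.1 CPM with COL1A2 at 0, and those of blood and immune cells to 2.749 to 12.76 CPM with PTPRC and CD3E at 0.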

How the data were processed

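The authors deposited read counts per gene symbol for 8 RNA libraries. The counting used featureCounts 1.5.2, ignored strand and counted a read for every gene it overlapped, per the file headers. TopHat2 2.1.1, Bowtie2 2.3.2, bedtools 2.26.0 and edgeR 3.24.3 are named, with hg19, in the submitters' processing notes, without their roles. In the header for cytosolic replicate 1 the output is named after nuclear replicate 1 and the input after itself. Domains were deposited as 1 consensus interval list for each stage and carry no score; how replicates were combined is not given in the sources used here.

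Bins were 100 kb. Genes counted as inside only with their whole span in 1 stretch; 366 of 27630 genes with features on several chromosomes were left out of placement. Of the 668 symbols inside, 641 matched RefSeq names. Counts passed filterByExpr (16504 genes) and went into edgeR 4.0.16 (R 4.3.3) for TMM scaling and 1 quasi-likelihood fit of all 8 libraries without a block, 6 contrasts, Benjamini-Hochberg adjustment and a threshold of 0.05. The procedure was tested on simulated counts. The exact permutation tests were run in Python 3.11.15 with scipy 1.17.1. DESeq2 1.42.0 served as an alternative. The floor of 3 counts corresponds to 0.312 to 1.10 CPM, depending on the library.

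Named genes were, per contrast, up to 4 called genes in each direction with the largest log2 fold changes, at least 300 exonic bases and at least 20 counts in every library of the higher group; the 12 with the highest CPM per kb; and up to 3 per list of 24 symbol lists. GLI3, SNRPN, PEG3 and the family members named by stretch were chosen after their values were seen, apart from those the rule names. The regions, lists and tests were chosen with earlier results of these data known. The K562 samples, whose titles and material labels disagree, were placed in no group. Some named genes are not reported here.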

Additional observations from a re-analysis of the deposited data

How the results depend on the processing

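Of 322 alternative values for counts of calls, medians, shares and bins, 255 kept direction and size, 64 moved and 3 changed sign. Bins numbered 564 with runs under 10 bins. Higher and lower nuclear genes against cytosolic ones numbered 19 and 5 with at least 10 counts in every library; higher ones numbered 18 with runs under 10 bins and 17 without zinc finger symbols (added after the data were seen). The median was 1.09 with upper-quartile factors (0.40 over all genes, a shift of 0.27) and 1.86 without the filter (0.5 over all). Lower native genes against nuclear ones numbered 2 with library totals alone, 12 without the filter, 20 with only the 4 libraries compared, 3 with runs under 10 bins and 3 without zinc finger symbols; higher ones numbered 3 with runs under 10 bins. Lower PFA genes against nuclear ones numbered 5 with library totals alone, 18 without the filter, 1 with the 4 libraries compared and 4 without zinc finger symbols; higher ones numbered 1 with the 4 libraries. Against cytosolic RNA, higher native genes numbered 3 with at least 10 counts and 0 with runs under 10 bins; lower ones numbered 2 without the filter, with DESeq2 and with the 4 libraries, and 1 with genes of at least 300 exonic bases; higher PFA genes numbered 1 with upper-quartile factors, 3 without the filter, 1 with at least 10 counts and 2 with DESeq2. The cause was not tested.

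Leaving out 1 library at a time gave ranges of 17 to 41 higher and 4 to 10 lower genes for nuclear against cytosolic RNA (median 0.61 to 0.97), 0 to 7 and 0 to 19 for native against nuclear, 0 to 6 and 0 to 21 for PFA against nuclear, 0 to 9 and 0 to 3 for native against cytosolic, and 0 to 5 and 0 to 1 for PFA against cytosolic. Lower native genes numbered 19 without either PFA library, and lower PFA genes 21 without PFA replicate 2. The share difference ran from 0.0108 to 0.0265 percentage points and the log2 short-to-long difference from -0.0876 to 0.0349, with 0.0302 without cytosolic replicate 1, 0.0222 without native replicate 1 and 0.0349 without native replicate 2. Where a group was left with 1 library, it was assumed to vary like the others.

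With the replicate number as a block, 34 and 7 genes were higher and lower in nuclear against cytosolic RNA, 2 were lower in native and 2 higher in PFA against cytosolic RNA; no other count moved by over 1.5 times. The labels do not say that the numbers mark a shared batch, and deviations of same-numbered libraries correlated at -0.088 to 0.3. Named genes kept their direction in all alternatives; 92 of 446 values lost their call. Depth limits all statements on silent genes to RNA above the floor.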
